A study of Mus musculus with 18 samples.

Results

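Vcam1, Icam1 and Sele encode cell-surface proteins that capture circulating leukocytes at sites of inflammation. The 3 genes were taken by symbol from the 55536 genes of a deposited RNA count table, and each was found once. They were read across 3 immortalised mouse embryonic fibroblast lines labelled WT, p65 KO (deficient in the NF-κB subunit p65, the product of Rela) and IKK2 KO (deficient in the IκB kinase subunit IKK2, the product of Ikbkb). Cells received the cytokine TNF (tumour necrosis factor alpha) at 10 ng/ml for 45 or 90 min or stayed untreated, which makes 9 groups of 2 libraries. The 2 libraries of a group are called a and b here, because the table's columns name the group but carry no replicate number. The labels give no strain, no other allele, and no statement of whether a line is 1 clone. Nor do they say that replicates were separate cultures, so the spread behind each p-value is that between these libraries and may be technical.

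VCAM-1 and ICAM-1 belong to the immunoglobulin superfamily and hold leukocytes firmly by binding integrins: VCAM-1 binds α4β1, and ICAM-1 binds the β2 integrins LFA-1 and Mac-1. E-selectin, the product of Sele, is a lectin that binds sialylated carbohydrates and lets leukocytes roll along the vessel wall. TNF activates the IκB kinase, which frees NF-κB dimers such as p65 with p50, and all 3 genes are textbook NF-κB targets in endothelium. VCAM-1 and ICAM-1 are also made by activated fibroblasts, whereas E-selectin is best known from endothelial cells.

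Promoter sequences are shown because all 3 RNAs were higher in WT cells after TNF and NF-κB sites are known close to their starts. The RefSeq promoter table (build GRCm38.p6) matched 2 of the 3 members, Icam1 and Sele, and did not match Vcam1. Each line below holds the 250 bases before RefSeq's transcription start on the plus strand, at chr9:21015690-21015939 for Icam1 and chr1:164047984-164048233 for Sele. Capitals mark matches on either strand to GGNNNTTCC, a loose κB-like pattern chosen after the promoters were read, and in Sele also to TGACATCA, a site of the ATF family, and to the TATA box TATAAA.
Icam1: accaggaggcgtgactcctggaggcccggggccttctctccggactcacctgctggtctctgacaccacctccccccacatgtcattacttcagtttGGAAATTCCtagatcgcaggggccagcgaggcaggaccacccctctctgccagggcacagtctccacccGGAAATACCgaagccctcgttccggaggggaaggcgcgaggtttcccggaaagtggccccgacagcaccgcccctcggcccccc
Sele: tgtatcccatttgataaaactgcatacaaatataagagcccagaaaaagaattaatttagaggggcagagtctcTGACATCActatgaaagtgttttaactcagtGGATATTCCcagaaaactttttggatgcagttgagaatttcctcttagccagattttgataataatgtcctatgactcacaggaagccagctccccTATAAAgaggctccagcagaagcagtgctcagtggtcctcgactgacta
The Icam1 stretch held GGAAATTCC from 153 to 145 bases before the start, where both strands match the pattern, and GGAAATACC from 84 to 76 bases before it, a match on the minus strand. The Sele stretch held GGATATTCC from 145 to 137 bases before the start, TGACATCA from 176 to 169 and TATAAA from 49 to 44. It also held TGACTCA, a match to the AP-1 pattern TGANTCA, from 73 to 67 bases before the start. Of 32851 promoter stretches of this length, 15.7% held GGNNNTTCC, 2.93% TGACATCA, 6.75% TGANTCA and 12.4% TATAAA. The full κB consensus was present in 3.9% of them and matched neither stretch. These matches describe letters and were not tested as binding sites.

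Total counts ran from 16708346 to 23469439 per library, and levels below are CPM (counts relative to the library total scaled by edgeR's TMM method), as mean ± SD with n = 2. Without TNF, the WT libraries held 63.8 ± 0.879 CPM of Rela, those of IKK2 KO 69.7 ± 3.84 CPM and those of p65 KO 5.68 ± 0.606 CPM, and p65 KO differed from WT by −3.49 ± 0.07 on the log2 scale (SE, edgeR adjusted p = 1.4e-36). Those of Ikbkb were 59.9 ± 0.76 CPM (WT), 43.4 ± 0.371 CPM (IKK2 KO) and 42.7 ± 0.0141 CPM (p65 KO), so counts over the whole gene do not check the IKK2 KO label. The summed level of 11 fibroblast markers was 11111.3 to 11504.1 CPM in WT libraries, 11012.3 to 11439.8 CPM in IKK2 KO and 4855.0 to 4999.9 CPM in p65 KO. Vim, Fn1, Col1a1 and Col1a2 made up most of each sum. Without TNF, these genes, Col3a1, Col5a1 and Pdgfrb were lowest in p65 KO. Pdgfra (WT 18.1, p65 KO 62.1, IKK2 KO 21.9 CPM) and Dcn (5.74, 17.2 and 1.39 CPM) were highest there. Untreated WT and IKK2 KO had similar sums but differed in Fn1 (5082.4 against 2768.3 CPM) and Thy1 (0 against 27.0 CPM). Myeloid and lymphoid markers summed to 1.18 to 2.23 CPM in any library, and muscle markers to at most 0.808 CPM.

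Vcam1 (ENSMUSG00000027962, GRCm38 chromosome 3, 116109949 to 116129688, minus strand) had the highest level of the 3 RNAs in every group, also per kilobase of exon. In untreated cells it was low in WT, intermediate in p65 KO and highest in IKK2 KO. After TNF it was lowest in p65 KO and still highest in IKK2 KO. In bulk RNA, fewer expressing cells and less RNA per cell cannot be told apart. The antisense gene Gm43109 shares 61 exon bases with Vcam1 and had 18 counts over all 18 libraries, against 54 to 2881 counts of Vcam1 in a single library.

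In WT, Vcam1 measured 2.74 and 2.63 CPM in untreated libraries a and b, 83.7 and 85.7 CPM at 45 min, and 83.2 and 81.1 CPM at 90 min. Both treated groups lay far above the untreated one. The rise was 4.98 ± 0.08 on the log2 scale at 45 min (SE, 31.5-fold, edgeR adjusted p = 1.5e-39), rank 11 from the highest of 16322 genes tested. At 90 min it was 4.94 ± 0.08 (30.6-fold, adjusted p = 1.1e-38). From 45 to 90 min the level differed by −0.04 ± 0.04 (95% interval −0.12 to 0.04, adjusted p = 0.57). The level reached at 45 min was thus held within this interval at 90 min. At adjusted p under 0.05, 5.73% of all genes tested were called higher at 45 min and 5.81% at 90 min, and 14.3% differed in either direction between the times. Vcam1 and Sele were called higher at both times, and neither passed between the times with edgeR or DESeq2 (Sele had an unadjusted p of 0.044 with edgeR).

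**Figure D1:**
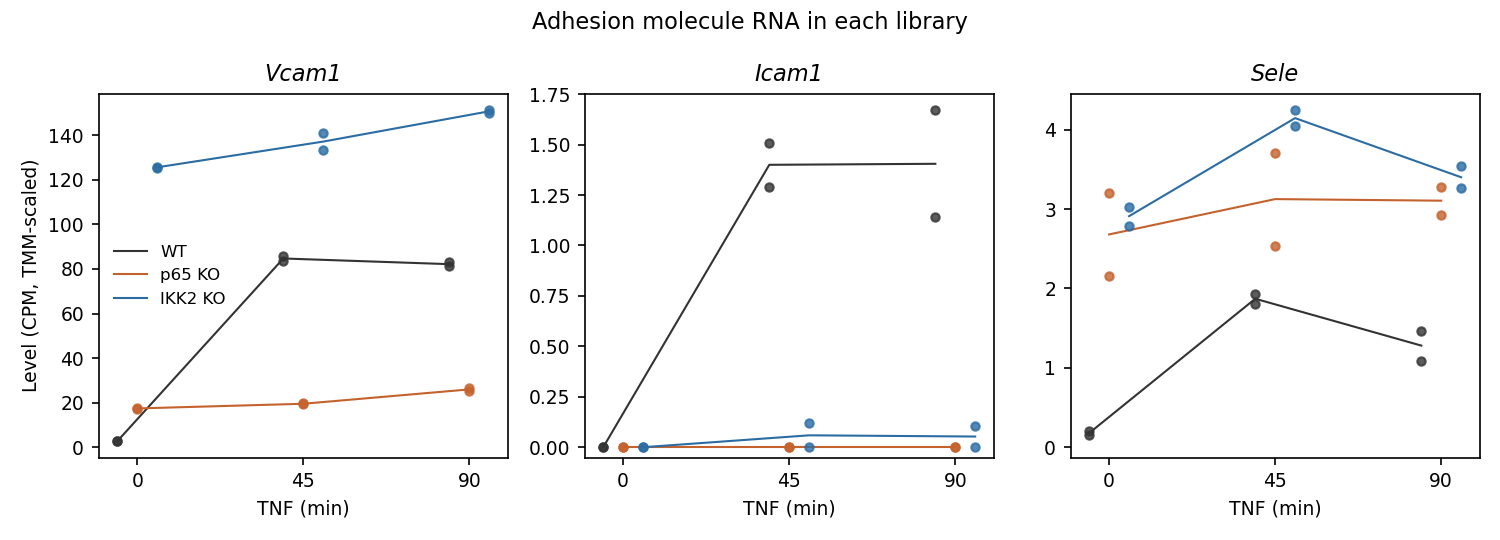
Levels of Vcam1, Icam1 and Sele (vertical axis, CPM scaled by TMM, own scale per gene) against TNF time in minutes for WT, p65 KO and IKK2 KO. Points are single libraries and lines join the means of 2 libraries. Untreated IKK2 KO (125.4 and 125.8 CPM of Vcam1) lies above WT after 45 min of TNF (83.7 and 85.7 CPM), while Icam1 leaves the floor in treated WT.

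Icam1 (ENSMUSG00000037405, chromosome 9, 21015985 to 21028817, plus strand) had nearly all its counts in WT cells given TNF. Per kilobase of annotated exon its mean CPM was below that of Sele in all 9 groups, but with the longest transcript as the length this turned in WT at 90 min (0.555 for Icam1 and 0.439 for Sele). Untreated WT libraries had 0 and 0 counts, those at 45 min 26 and 26, and those at 90 min 23 and 32. This made 1.4 ± 0.16 CPM at 45 min and 1.41 ± 0.38 CPM at 90 min. Against a floor of 3 counts over the untreated group, the counts seen were 20.4-fold higher at 45 min and 20.6-fold higher at 90 min. These folds leave out the counting error of the treated libraries. From 45 to 90 min it differed by 0.01 ± 0.30 (95% interval −0.60 to 0.62, adjusted p = 1). Icam1 passed the filter on low counts only through the treated WT libraries, so no test of its rise is given. An antisense gene, Gm47079, shares 511 exon bases with it and had 61 counts over the 18 libraries. Strand handling in the counting was not given in the sources used here.

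In p65 KO all 6 libraries had 0 Icam1 counts. In IKK2 KO both untreated libraries had 0, library a had 2 and library b 0 at 45 min, and library a had 0 and library b 2 at 90 min. WT cells at the same times were 20.8-fold and 23.3-fold above the floor of 3 counts taken for p65 KO. The ratio to IKK2 KO was 24.7 at 45 min (95% counting interval 6.5 to 209.3) and 26.6 at 90 min (7.01 to 224.9). These intervals cover counting error only, and the folds above a floor leave out that of the WT counts. Neither serves as a test, because Icam1 passed the filter on low counts only through the treated WT libraries. With 0 counts, the 95% counting interval of untreated Icam1 reached up to 0.0837 CPM (WT), 0.0802 CPM (p65 KO) or 0.109 CPM (IKK2 KO). A baseline difference between the lines below such levels was thus not detectable at this depth.

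Sele (ENSMUSG00000026582, chromosome 1, 164048234 to 164057677, plus strand) was nearly absent from untreated WT and was present in both knock-out lines before TNF. In WT it measured 0.152 and 0.205 CPM untreated (3 and 5 counts), 1.93 and 1.81 CPM at 45 min, and 1.09 and 1.47 CPM at 90 min. The 3 groups did not overlap. Sele rose by 3.32 ± 0.41 at 45 min (10.0-fold, edgeR adjusted p = 2.1e-08) and by 2.77 ± 0.45 at 90 min (6.81-fold, adjusted p = 1.1e-05). The difference from 45 to 90 min was −0.56 ± 0.27 and did not pass (adjusted p = 0.18). No annotated gene overlaps Sele.

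The baselines of the lines lay far apart. Untreated p65 KO held 17.0 and 17.8 CPM of Vcam1, 2.70 ± 0.11 above untreated WT on the log2 scale (6.49-fold, edgeR adjusted p = 2e-25). Untreated IKK2 KO held 125.8 and 125.4 CPM, 5.55 ± 0.07 above WT (46.8-fold, adjusted p = 1.7e-43) and 2.85 ± 0.05 above p65 KO (adjusted p = 4.3e-39). The IKK2 KO libraries were the highest and the WT libraries the lowest, with no overlap. For Sele, untreated p65 KO held 3.2 and 2.16 CPM and untreated IKK2 KO 2.79 and 3.03 CPM. These were 3.83 ± 0.36 above WT in p65 KO (14.2-fold, adjusted p = 8.4e-13) and 3.96 ± 0.37 above WT in IKK2 KO (15.5-fold, adjusted p = 9.7e-13). Between the knock-out lines Sele overlapped and differed by 0.13 ± 0.20 (95% interval −0.27 to 0.54, adjusted p = 0.56). Many genes separate these lines: 39.8% of genes tested were called higher in untreated p65 KO than in WT, 35.9% higher in IKK2 KO than in WT, and 35.5% higher in IKK2 KO than in p65 KO. The comparisons share the untreated WT libraries.

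Set against WT after TNF, untreated IKK2 KO cells held more Vcam1, by 0.57 ± 0.04 at 45 min (edgeR adjusted p = 1.3e-17) and 0.61 ± 0.04 at 90 min (adjusted p = 1.1e-18). Sele in untreated IKK2 KO was higher than in WT at 90 min by 1.19 ± 0.25 (adjusted p = 4e-05). Against WT at 45 min it was higher by 0.63 ± 0.23 (adjusted p = 0.012), a call lost with DESeq2's Wald test (adjusted p = 0.063), without WT 45 min library b (0.054) and without untreated IKK2 KO library b (0.065). Icam1 went the other way, with 0 counts in untreated IKK2 KO against 52 and 55 summed over the WT libraries at 45 and 90 min. These comparisons were chosen after the values were seen, and 35.4% and 35.2% of all genes were called higher in them.

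Markers of other cell types moved with the lines. Before TNF, the summed level of 11 endothelial markers was 35.1 to 36.3 CPM in WT libraries, 35.5 to 39.2 CPM in IKK2 KO and 1.08 to 1.23 CPM in p65 KO. With TNF it reached at most 51.8, 42.9 and 1.77 CPM in these lines, and Flt1 made up most of it in WT and IKK2 KO. Of the defining endothelial genes, Cldn5 had 0 counts in every group, Kdr had 0 in all groups but p65 KO at 90 min, and Tie1 had 0 in all but IKK2 KO at 90 min. The 4 epithelial markers summed to at most 0.164 CPM in WT libraries, 0.403 to 0.983 CPM in those of p65 KO and 1.94 to 3.23 CPM in those of IKK2 KO. These sums ran in the order of untreated Vcam1, but Krt8 made up most of them in untreated p65 KO (0.478 CPM) and IKK2 KO (2.36 CPM). Epcam had 0 counts in untreated WT and IKK2 KO, Krt18 had 0 in untreated WT and p65 KO, and Cdh1 had 0 in untreated p65 KO. Cdh5, the endothelial cadherin, ran in the order of untreated Vcam1 too, alone among the 11 endothelial markers. It had 0.117 CPM in untreated WT, 0.197 CPM in p65 KO libraries and 0.818 CPM in those of IKK2 KO (5, 9 and 28 counts). Egfl7, which encodes a protein secreted by endothelium, had 1.07, 0.0872 and 2.29 CPM in the same groups. It was thus lowest in p65 KO, as was Flt1. Esam (0.413, 0.131 and 0.147 CPM) and Vwf (0.148, 0.0644 and 0.119 CPM) were highest in untreated WT. Pecam1 (0.0205, 0.11 and 0 CPM) was highest in untreated p65 KO. The part of these markers in the baselines was not tested.

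In p65 KO, the Vcam1 response passed at 90 min and not at 45 min, and Sele showed no detectable response. Vcam1 went from 17.0 and 17.8 CPM to 19.3 and 19.7 CPM at 45 min and to 25.2 and 26.7 CPM at 90 min. The groups did not overlap, yet the 45 min difference did not pass (0.16 ± 0.07, edgeR adjusted p = 0.27). Its 95% interval was 0.03 to 0.30 and its unadjusted p with edgeR was 0.019, so a small early rise is not excluded. At 90 min Vcam1 was higher by 0.58 ± 0.06 than untreated (adjusted p = 3.6e-09) and by 0.41 ± 0.06 than at 45 min (adjusted p = 1.3e-05). Of all genes tested, 1.17% were called higher at 45 min, 4.06% at 90 min, and 2.27% at 90 than at 45 min. These shares depended on single libraries. The 191 genes higher at 45 min became 72 without untreated library b, 100 without 45 min library a and 89 without 45 min library b. The 663 at 90 min became 394 and 331 without untreated library a or b, and 358 and 369 without 90 min library a or b. The 371 between the times became 148 and 150 without 45 min library a or b, and 210 and 146 without 90 min library a or b. Sele measured 2.54 and 3.71 CPM at 45 min and 2.93 and 3.28 CPM at 90 min, overlapping the untreated libraries at 45 and 90 min. Its differences from untreated were 0.26 ± 0.18 (95% interval −0.10 to 0.63, adjusted p = 0.6) and 0.22 ± 0.18 (−0.14 to 0.58, adjusted p = 0.56).

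In IKK2 KO, Vcam1 rose from its high baseline by small steps. It went from 125.8 and 125.4 CPM to 133.3 and 141.0 CPM at 45 min and 151.3 and 150.2 CPM at 90 min, with no overlap. The rise at 90 min was 0.26 ± 0.03 (edgeR adjusted p = 2.8e-07). That at 45 min was 0.13 ± 0.04 (adjusted p = 0.012), a call lost with DESeq2's Wald test (0.13), without untreated library a (0.076) or b (0.084) and without 45 min library b (0.29). The step from 45 to 90 min was 0.13 ± 0.03 (adjusted p = 0.0029), lost with DESeq2's Wald test (0.11) and without 45 min library a (0.1). Of all genes tested, 3.33% were called higher at 45 min, 3.36% at 90 min and 10.1% at 90 than at 45 min. The 543 genes higher at 45 min became 333 without untreated library a, and the 549 at 90 min became 354 without untreated library b and 321 without 90 min library a. Sele measured 4.25 and 4.04 CPM at 45 min and 3.26 and 3.54 CPM at 90 min, all above the untreated 2.79 and 3.03 CPM. Neither difference passed: 0.51 ± 0.19 at 45 min (adjusted p = 0.095) and 0.22 ± 0.20 at 90 min (adjusted p = 0.69).

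**Figure D2:**
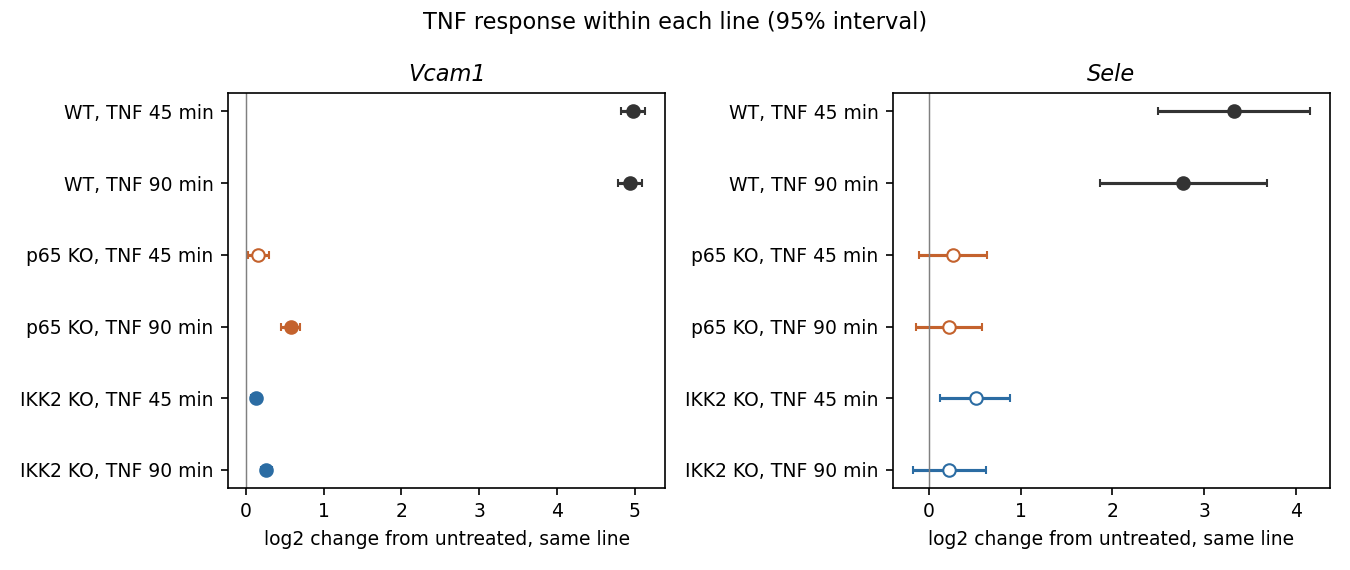
Change with TNF within each line (horizontal axis, log2 change from the untreated libraries of the same line) for Vcam1 and Sele at 45 and 90 min. Points are edgeR estimates, filled where called and open where not, and bars are 95% intervals. WT sits at 4.98 and 4.94 for Vcam1 and 3.32 and 2.77 for Sele, and every knock-out estimate lies below 1.

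The responses themselves were compared between lines. For Vcam1, the p65 KO response was below that of WT by −4.81 ± 0.12 at 45 min (edgeR adjusted p = 1.4e-31) and −4.36 ± 0.11 at 90 min (adjusted p = 1.3e-29). The IKK2 KO response was below that of WT by −4.85 ± 0.09 (adjusted p = 1.4e-35) and −4.67 ± 0.09 (adjusted p = 7.3e-35). For Sele the differences from WT were −3.06 ± 0.47 and −2.54 ± 0.50 in p65 KO (adjusted p = 4.6e-06 and 0.00046) and −2.82 ± 0.48 and −2.55 ± 0.50 in IKK2 KO (adjusted p = 4.3e-05 and 0.0011). All use the same WT libraries. The share of genes called lower was 3.61% at 45 min and 3.47% at 90 min for p65 KO, and 2.82% and 1.52% for IKK2 KO. The 567 genes lower in p65 KO at 90 min became 360 without 90 min p65 KO library a.

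Between the 2 knock-out lines the Vcam1 responses differed by −0.04 ± 0.08 at 45 min (95% interval −0.19 to 0.12, edgeR adjusted p = 0.9). At 90 min IKK2 KO responded less on the log2 scale, by −0.31 ± 0.07 (adjusted p = 0.01). That call was lost with DESeq2's Wald test (0.085), without untreated p65 KO library a (0.099) and without 90 min p65 KO library b (0.11). For Sele the differences were 0.25 ± 0.26 at 45 min (95% interval −0.29 to 0.78, adjusted p = 0.72) and −0.00 ± 0.26 at 90 min (−0.52 to 0.52, adjusted p = 1). Of all genes, 3.67% at 45 min and 0.717% at 90 min were called lower in IKK2 KO than in p65 KO. The 599 genes at 45 min became 388 without untreated p65 KO library b and 348 without 45 min p65 KO library b. The 117 genes at 90 min became 75 and 48 without untreated p65 KO library a or b, 58 without 90 min p65 KO library a, 59 without untreated IKK2 KO library b, and 71 and 58 without 90 min IKK2 KO library a or b.

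A log2 change depends on the baseline, so the CPM gained with TNF are given as well, a scale added after the data were seen. WT gained 82.0 ± 1.42 CPM of Vcam1 at 45 min and 79.5 ± 1.46 CPM at 90 min. These are differences of means ± the SD of a difference between single libraries. IKK2 KO gained 11.6 ± 5.47 and 25.1 ± 0.841 CPM, 14.1% and 31.6% of the WT gain. p65 KO gained 2.1 ± 0.636 and 8.57 ± 1.25 CPM, 2.56% and 10.8% of it. On this scale IKK2 KO gained more Vcam1 than p65 KO at both times, the reverse of the log2 order at 90 min. For Sele, IKK2 KO gained 1.23 ± 0.228 CPM at 45 min, 72.8% of the 1.69 ± 0.0969 CPM gained in WT, with pairs of libraries from 1.01 to 1.46 CPM against 1.6 to 1.78 CPM. At 90 min the gains were 0.483 ± 0.261 CPM in IKK2 KO and 1.1 ± 0.269 CPM in WT. Neither rise of Sele in IKK2 KO passed on the log2 scale (edgeR adjusted p = 0.095 at 45 min and 0.69 at 90 min). p65 KO gained 0.445 ± 1.1 CPM of Sele at 45 min and 0.427 ± 0.771 CPM at 90 min, each less than its SD of a difference between single libraries.

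**Figure D3:**
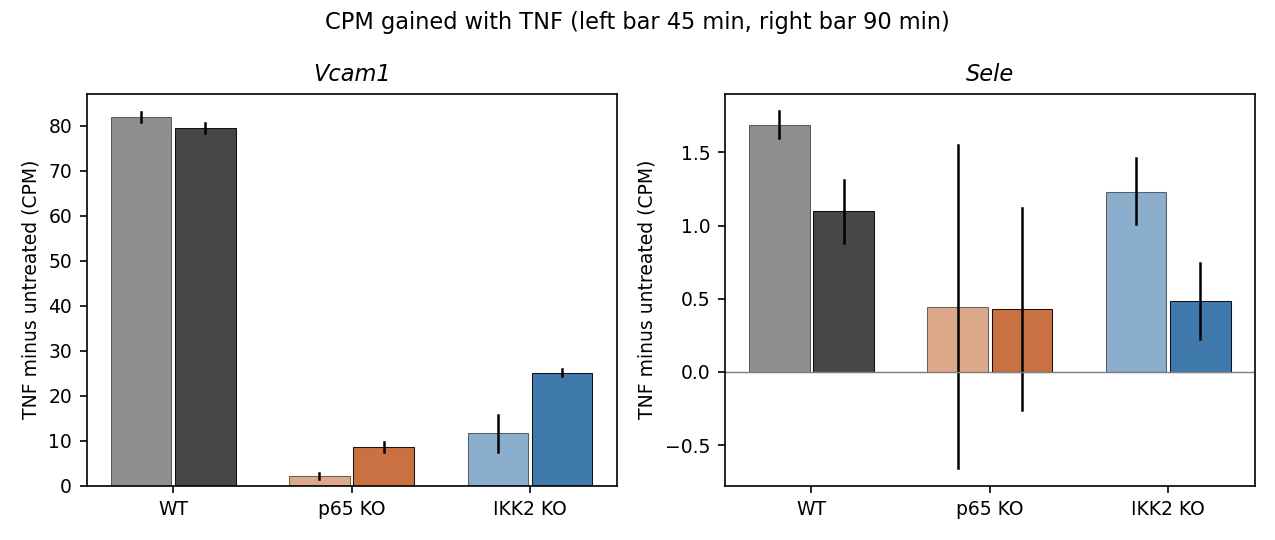
CPM gained with TNF (vertical axis, treated mean minus untreated mean) for Vcam1 and Sele in WT, p65 KO and IKK2 KO. The left bar of each pair is 45 min and the right bar 90 min, and thin lines run from the lowest to the highest difference between a treated and an untreated library (n = 2 each). Vcam1 gains in IKK2 KO (11.6 and 25.1 CPM) lie between those of p65 KO (2.1 and 8.57 CPM) and WT (82.0 and 79.5 CPM).

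From the highest mean down, Vcam1 ran from IKK2 KO at 90 min through IKK2 KO at 45 min and untreated, WT at 45 and 90 min, and p65 KO at 90 min, 45 min and untreated, to untreated WT. No neighbours in this order overlapped, although the nearest libraries of WT at 45 and 90 min were 83.7 and 83.2 CPM. Sele ran from IKK2 KO at 45 min (4.15 ± 0.153 CPM) through IKK2 KO at 90 min, p65 KO at 45 and 90 min, untreated IKK2 KO and untreated p65 KO to WT at 45 min, 90 min and untreated. Each of the 4 steps from IKK2 KO at 90 min down to untreated p65 KO overlapped, whereas every knock-out library lay above every WT library, treated or not. Per kilobase of annotated exon, untreated Vcam1 exceeded untreated Sele 4.92 times in WT, 2.13 times in p65 KO and 14.2 times in IKK2 KO. With the longest transcript as the length these ratios became 10.7, 4.62 and 30.7.

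Other genes of leukocyte adhesion were read beside the 3 members. Of 41 listed partners (P-selectin, other ICAMs, junctional adhesion molecules, integrins, enzymes that build selectin ligands, and the ezrin family that anchors adhesion molecules), 27 were tested, 13 fell below the filter and 1 symbol was not matched. In WT, 2 rose and 6 fell at 45 min, beside 5.73% of all genes tested called higher and 6.45% called lower. At 90 min 6 rose and 0 fell, beside 5.81% and 3.51%. DESeq2's Wald test called 3 higher and 0 lower at 90 min, and at an unadjusted p under 0.05 edgeR had 9 higher and 2 lower. The median log2 change of the 27 was 0.02 and 0.06, beside 0.01 and 0.00 for all genes. In p65 KO edgeR called 0 of 27 in either direction at 45 and at 90 min, as did DESeq2, while 2 and 4 were higher and 0 lower at an unadjusted p under 0.05 (of all genes 1.17% were called higher and 0.49% lower at 45 min, and 4.06% and 2.42% at 90 min). In IKK2 KO 4 fell and 0 rose at 45 min (edgeR 7 lower and 3 higher unadjusted, DESeq2 2 lower and 0 higher), and 4 rose and 1 fell at 90 min (of all genes 3.33% were called higher and 5.43% lower at 45 min, and 3.36% and 1.12% at 90 min). Untreated, 10 were higher and 9 lower in p65 KO than in WT, beside 39.8% and 41.1% of all genes, and 16 higher and 8 lower in IKK2 KO, beside 35.9% and 38.4%. Shares of all genes called lower depended on single libraries. In WT at 90 min the 573 genes became 341 without untreated library a, and 338 and 334 without 90 min library a or b. In p65 KO the 80 at 45 min became 25 without untreated library b or 45 min library a and 36 without 45 min library b, and the 395 at 90 min became 178 and 121 without untreated library a or b, and 116 and 186 without 90 min library a or b. In IKK2 KO the 887 at 45 min became 568 without untreated library a, and the 183 at 90 min became 93 and 70 without untreated library a or b, and 70 and 96 without 90 min library a or b.

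Among these partners, Sdc4, the heparan sulfate proteoglycan syndecan-4, went from 202.3 ± 7.82 CPM to 290.4 ± 1.12 and 355.0 ± 3.84 CPM in WT. It rose by 0.52 ± 0.03 and 0.81 ± 0.03 (edgeR adjusted p = 1.1e-17 and 1.1e-24), and by 0.27 ± 0.04 in IKK2 KO at 90 min (adjusted p = 6.4e-07). In p65 KO its differences were 0.08 ± 0.04 and 0.09 ± 0.04 (adjusted p = 0.33 and 0.12). Unlike Vcam1 and Sele, untreated Sdc4 was lower than in WT in both knock-outs, by −0.78 ± 0.03 and −0.63 ± 0.03. Icam5, a relative of Icam1 that lies beside it on chromosome 9, rose in WT at 90 min by 0.71 ± 0.23 (adjusted p = 0.043). Its libraries then held 1.88 and 3.3 CPM, against 1.47 and 1.64 CPM untreated, so the rise lay largely in 1 library. Mcam, the adhesion molecule CD146, changed by −0.45 ± 0.10 in WT at 45 min (adjusted p = 0.0014), and St3gal4, a sialyltransferase that helps build selectin ligands, by −0.33 ± 0.06 (adjusted p = 8.9e-05). Of the other ICAMs, Icam2 had 2 counts and Icam4 15 over all 18 libraries.

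Selp, which encodes P-selectin and lies near Sele on chromosome 1 (164115264 to 164150026), was singled out after its values were seen. Without TNF it measured 70.2 to 70.7 CPM in p65 KO libraries, 0.123 to 0.254 CPM in WT ones and 0.228 to 0.433 CPM in IKK2 KO ones. In p65 KO it was 8.55 ± 0.14 above WT (edgeR adjusted p = 1.3e-39) and the groups lay far apart. Within p65 KO it differed from untreated by −0.03 ± 0.04 at 45 min and −0.07 ± 0.04 at 90 min (adjusted p = 0.82 and 0.37).

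Transcription factors known to bind the promoters of the members formed a further list. Of 22 listed and tested, 12 rose and 1 fell in WT at 45 min, and 12 rose and 2 fell at 90 min, beside 5.73% and 6.45% of all genes tested called higher and lower at 45 min and 5.81% and 3.51% at 90 min. The median log2 change of the 22 was 0.21 and 0.32, beside 0.01 and 0.00 for all genes. In p65 KO 2 rose at 45 min, and 7 rose and 1 fell at 90 min, beside 1.17% and 4.06% of all genes called higher and 2.42% called lower at 90 min. In IKK2 KO 8 rose at 45 min and 10 at 90 min and 0 fell, also with DESeq2, and 2 and 1 were lower at edgeR's unadjusted p under 0.05. Of all genes, 3.33% and 3.36% were called higher and 5.43% and 1.12% lower at these times. Untreated, 12 were higher and 9 lower in p65 KO than in WT, beside 39.8% and 41.1% of all genes, and 11 higher and 8 lower in IKK2 KO, beside 35.9% and 38.4%.

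Irf1, an interferon regulatory factor that binds the Vcam1 promoter, peaked in WT at 45 min, from 5.25 ± 1.05 CPM to 116.9 ± 0.0435 CPM and then 15.9 ± 0.411 CPM at 90 min. Its rise of 4.45 ± 0.07 (edgeR adjusted p = 3.1e-40) compared with 1.40 ± 0.07 in IKK2 KO (adjusted p = 2.9e-20) and −0.12 ± 0.08 in p65 KO (adjusted p = 0.57). Relb, an NF-κB subunit, rose by 2.85 ± 0.07 in WT at 45 min (adjusted p = 7.8e-31), and by 0.40 ± 0.07 in p65 KO and 1.26 ± 0.07 in IKK2 KO at 90 min (adjusted p = 0.00019 and 5.2e-18). Nfkb2, the subunit p100/p52, rose by 1.67 ± 0.04 in WT, 0.18 ± 0.03 in p65 KO and 0.75 ± 0.04 in IKK2 KO at 90 min (adjusted p = 1.3e-33, 0.00023 and 6.3e-20). Atf3, a stress-induced factor of the ATF family, rose in all 3 lines at 45 min, by 2.24 ± 0.33 in WT and 0.97 ± 0.12 in p65 KO (adjusted p = 8.8e-07 and 8e-07), and from 5.77 ± 0.251 to 17.5 ± 0.19 CPM in IKK2 KO (adjusted p = 3.5e-16). These 4 factors, named for their change in WT, were called higher untreated in both knock-outs than in WT, while 9 and 8 of the 22 were called lower: Irf1 by 1.43 and 1.55, Relb by 1.02 and 1.27, Nfkb2 by 0.97 and 0.73 and Atf3 by 3.38 and 4.06 in p65 KO and IKK2 KO.

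The genes most like each member were those with the highest Pearson r of log2 level over the 9 group means, among 11207 genes. The points share their libraries and scaling, and r is a description. It takes no account of the size of a change. Vezf1 ran from 71.9 to 112.3 CPM, against 2.68 to 150.7 CPM for Vcam1. Katna1 ran from 22.2 to 28.6 CPM, against 0.179 to 4.15 CPM for Sele. Icam1 had hardly any counts outside treated WT, so its r mainly sets treated WT against the other groups. For Vcam1 these were Vezf1 (0.988), Zfp57 (0.965), Ccl2 (0.959), Cxcl10 (0.957) and Bcl10 (0.945). Ccl2 and Cxcl10 encode chemokines that attract monocytes and T cells. Ccl2 went from 0.112 to 49.7 CPM between untreated and 90 min in WT, from 1.78 to 5.25 CPM in p65 KO and from 15.1 to 68.2 CPM in IKK2 KO. For Icam1 the leading genes were Sema4b (0.978), Gch1 (0.964), Uap1 (0.961), Taf7 (0.945) and Stx11 (0.941), and for Sele Katna1 (0.969), Resf1 (0.959), Yju2 (0.950), Ccdc61 (0.945) and Arhgef2 (0.935). Gch1, the first enzyme of tetrahydrobiopterin synthesis, ran from 1.25 to 6.09 and 3.9 CPM in WT and between 1.09 and 1.5 CPM in the knock-outs. Among the members themselves, r was 0.708 for Vcam1 with Sele, 0.373 for Vcam1 with Icam1 and −0.126 for Icam1 with Sele.

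**Figure D4:**
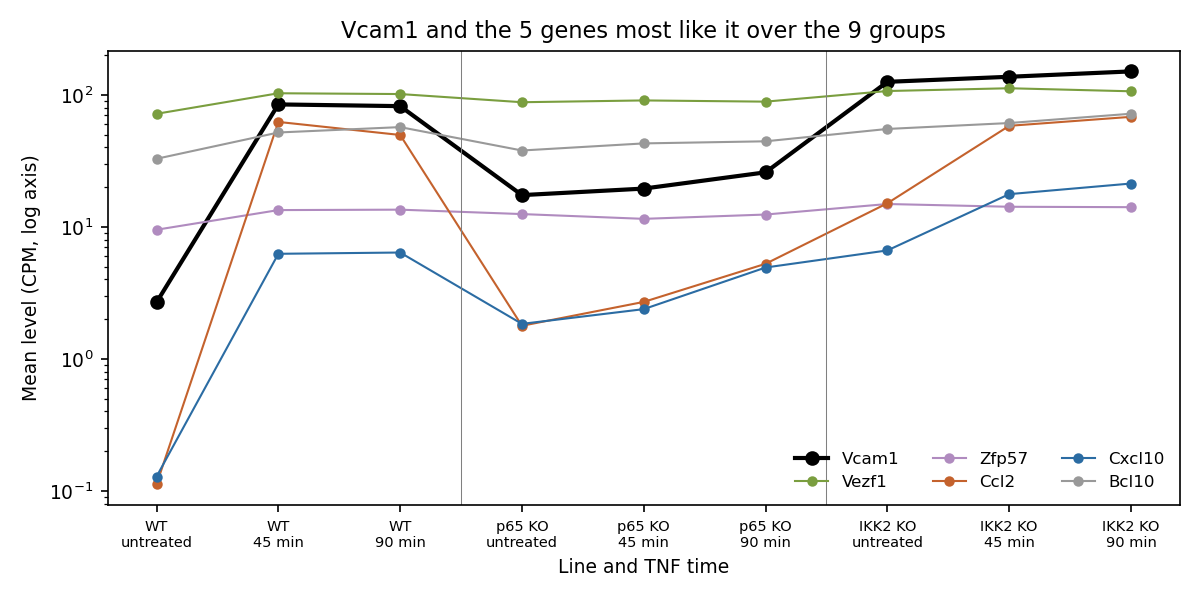
Mean level (vertical axis, CPM, log axis) of Vcam1 and the 5 genes most like it over the 9 groups of line and TNF time (horizontal axis), each point the mean of 2 libraries. Vcam1, Ccl2 and Cxcl10 span the widest range and are lowest in untreated WT (2.68, 0.112 and 0.128 CPM).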

How the data were processed

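RNA from 3 mouse embryonic fibroblast lines was sequenced in 18 libraries, 2 for each of 9 groups. Per the submitters' processing notes and the design text, reads were checked with FastQC 0.11.8, trimmed with Trimmomatic, aligned to GRCm38 with HISAT2 and assigned to genes with featureCounts (Subread 1.6.2), with edgeR 3.26.4 also named. Which annotation release, strand setting and treatment of multiply placed reads were used is not given in the sources used here. The authors deposited estimated counts per gene made by these steps: the unit is taken from the values, since 31.8% of its non-zero values are fractional, and these were rounded to whole counts. All 55536 gene IDs matched GENCODE M21, which gave positions and lengths.

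Genes passing filterByExpr (16322, with 0.0601% of counts lost) were fitted with edgeR 4.0.16 (R 4.3.3): TMM scaling, robust quasi-likelihood F-tests, 1 coefficient per group over all 18 libraries. Benjamini-Hochberg adjustment ran over all genes of each of 18 planned contrasts and 2 added after the data were seen, with a threshold of 0.05. A chi-square comparison of the counts within each pair of libraries gave 1.13 to 4.27 per degree of freedom, so no library was a copy of the other in its group. Libraries of different groups were not compared in this way. The fit was tested on simulated data. Alternatives were DESeq2's size factors, DESeq2's Wald test (version 1.42.0), no filter, only the libraries compared, each library left out, and the longest transcript as length.

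The 3 genes, the partner, promoter factor and cell type marker lists were chosen with earlier results of these data known. Named were the members, Rela and Ikbkb, the 4 genes of each list with the largest called change in WT, and the 5 genes most like each member among those with at least 2 CPM in their highest group. Selp was named after its values were seen.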

Additional observations from a re-analysis of the deposited data

Results flagged for a closer look

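The TNF responses of Vcam1 and Sele differed between lines by a test of the difference itself (edgeR, log2 scale, over the 2 libraries of each group). In p65 KO the Vcam1 response was smaller than the WT one by −4.81 (45 min) and −4.36 (90 min), and in IKK2 KO by −4.85 and −4.67. Sele responded less than in WT by −3.06 and −2.54 in p65 KO, and by −2.82 and −2.55 in IKK2 KO. These 8 differences share the WT libraries. At 90 min Vcam1 also responded less in IKK2 KO than in p65 KO, by −0.31, the only one of these differences whose call an alternative ended. A log2 change depends on the baseline, which was higher in both knock-outs. In CPM, IKK2 KO gained 72.8% and 43.9% of the WT gain of Sele at 45 and 90 min. Neither rise of Sele in IKK2 KO passed, however (edgeR adjusted p = 0.095 and 0.69). For Vcam1 IKK2 KO gained 14.1% and 31.6%, and more CPM than p65 KO at 90 min. Groups of 2 libraries were not examined for an outlying library.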

How the results depend on the processing

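Of 411 values under the alternatives, 379 kept their direction and their side of the threshold, 12 lost their call, 17 turned direction and 3 moved. Every value that turned belongs to a difference that did not pass in the first place. With DESeq2's Wald test the calls lost were Vcam1 in IKK2 KO at 45 min (0.14), its step from 45 to 90 min there (0.12), its response at 90 min in IKK2 KO against p65 KO (−0.31), and Sele in untreated IKK2 KO against WT at 45 min (0.62). The Sele response at 90 min in IKK2 KO against p65 KO (−0.00) became 0.00 with DESeq2's size factors, 0.01 with DESeq2's Wald test and 0.00 with only the libraries compared. The ratios of Vcam1 to Sele per kilobase moved to 10.7 in untreated WT, 4.62 in p65 KO and 30.7 in IKK2 KO with the longest transcript.

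Leaving out 1 library at a time gave −0.29 to 0.27 for Icam1 in WT from 45 to 90 min. For Sele it gave −0.07 to 0.56 in p65 KO at 45 min, −0.04 to 0.52 at 90 min and −0.26 to 0.29 between the times. For Vcam1 in IKK2 KO it gave 0.09 to 0.17 at 45 min and 0.10 to 0.18 from 45 to 90 min. For IKK2 KO against p65 KO it gave −0.14 to 0.43 for untreated Sele, −0.08 to 0.00 and −0.36 to −0.27 for the Vcam1 responses at 45 and 90 min, and −0.05 to 0.59 and −0.30 to 0.27 for those of Sele. Sele in untreated IKK2 KO against WT at 45 min stayed within 0.58 to 0.69. The cause was not tested.

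DESeq2's Wald test called fewer genes: in WT 507 higher and 595 lower at 45 min (edgeR 935 and 1053) and 554 and 257 at 90 min (948 and 573), in p65 KO 104 and 36 (191 and 80) and 277 and 107 (663 and 395), and in IKK2 KO 291 and 466 (543 and 887) and 308 and 47 (549 and 183). With only the libraries compared, p65 KO had 356 higher and 177 lower at 45 min and 627 lower at 90 min. No paired analysis was possible because the table's columns carry no replicate number. With 0 to 5 counts a library, Icam1 outside treated WT and Sele in untreated WT are limited by depth.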
